A study of Mus musculus with 5 samples.

Results

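Transcripts of 10 genes of cellular iron uptake, storage, export and sensing were followed in 5 RNA sequencing libraries of B16F10, a pigmented mouse melanoma line. The genes were chosen by name as Tfrc, Slc11a2, Slc40a1, Steap3, Fth1, Ftl1, Ireb2, Aco1, Fbxl5 and Ncoa4, and all 10 were found among the 54100 genes of the deposited table. Each of the 5 groups had 1 library, pooled from 3 repeats of the culture: dynamic suspension culture (labelled genotype WT), conventional three-dimensional (3D) culture (WT), HIF-1α overexpression, HIF-1α knockdown, and shControl (WT). HIF-1α is the part of the HIF-1 transcription factor that is stabilised when oxygen is low, and its place in stem-like melanoma cells, with p53, is the subject of the series. The labels give no treatment for any sample and the same growth text for all 5, with shaking at 60 to 80 rpm in medium without serum, kept up for 7 to 10 days. How the lines labelled overexpression and knockdown were made, and whether they are single clones, is not stated in the labels. The column of the library labelled knockdown is headed B16F10, the bare name of the line, and that labelled overexpression B16F10Q. The other columns are headed B3 (conventional 3D culture), B4 (dynamic suspension) and B5 (shControl).

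Cells take up iron by endocytosis of transferrin bound to its receptor, encoded by Tfrc. In the endosome the ferric iron is reduced by Steap3 and passes into the cytosol through the divalent metal transporter DMT1, encoded by Slc11a2. Surplus iron is stored in ferritin, a shell of heavy (Fth1) and light (Ftl1) chains, is released from it when Ncoa4 carries ferritin to the lysosome, and leaves the cell through ferroportin, encoded by Slc40a1. The iron regulatory proteins, encoded by Aco1 and Ireb2, bind hairpins called iron-responsive elements when iron is scarce. Binding in a 5′ UTR blocks translation of ferritin and ferroportin, and binding in the 3′ UTR protects the Tfrc transcript from decay, while Fbxl5 marks the Ireb2 protein for degradation when iron and oxygen are present. Tfrc is also a known target of HIF-1. Melanoma cells need iron for proliferation as other tumour cells do.

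The hairpins are shown here for the members with a match to a set pattern. Among these, they separate members whose transcript amount the iron regulatory proteins are known to change from those whose translation they change. A match was an unpaired C, 5 bases, the loop CAGTGN, and 5 bases that pair with those before the loop (G with U allowed), within an annotated UTR on the transcript strand. Tfrc had 4 matches in its 3′ UTR, and Fth1, Ftl1 and Slc40a1 had 1 each in the 5′ UTR. Sequences are 5′ to 3′ from the GENCODE M21 transcripts of GRCm38, 30 bases each, with the unpaired C and the 6-base loop in capitals:
Tfrc 3′ UTR, chr16:32631219-32631248, plus strand: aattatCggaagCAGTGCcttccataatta
Tfrc 3′ UTR, chr16:32631598-32631627, plus strand: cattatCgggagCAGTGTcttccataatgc
Tfrc 3′ UTR, chr16:32631663-32631692, plus strand: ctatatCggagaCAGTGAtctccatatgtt
Tfrc 3′ UTR, chr16:32631710-32631739, plus strand: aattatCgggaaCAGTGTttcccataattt
Slc40a1 5′ UTR, chr1:45925464-45925493, minus strand: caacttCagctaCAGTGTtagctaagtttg
Fth1 5′ UTR, chr19:9982732-9982761, plus strand: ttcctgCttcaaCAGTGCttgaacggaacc
Ftl1 5′ UTR, chr7:45459778-45459807, minus strand: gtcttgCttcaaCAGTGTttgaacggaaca

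The arms on either side of the loop had the same letters in both ferritin genes, ttcaa before it and ttgaa after it. Of all protein-coding genes with an annotated UTR, 0.148% had such a match in a 5′ UTR and 0.595% in a 3′ UTR. Slc11a2 and the other 5 members had no match to this pattern in their annotated UTRs. As background, Slc11a2 makes transcript forms with and without a 3′ element, which values per gene do not separate. The pattern used here did not find that element, so it does not place Slc11a2 on either side.

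The deposited values summed to between 59493240 and 61267892 in the dynamic suspension, conventional 3D and shControl columns, and to 15393189 and 14803426 in the columns of the libraries labelled overexpression and knockdown. The first 3 columns are treated as estimated counts, from the pile-up of their low values, and the other 2 as plain counts, so wherever a labelled line is set against shControl, group and kind of column cannot be told apart. Levels below are CPM, each gene's count scaled to a library total of 1000000, adjusted by TMM, a library scaling that assumes most genes are alike. Ratios are log2 values of scaled CPM, given with 95% intervals that cover counting error only. With 1 library a group there is no replicate check and no test across conditions. "Called" means at least 2-fold, with a mean of at least 1 CPM and an interval that excludes equality. In bulk RNA, fewer cells of a type and less RNA per cell cannot be told apart. All 7 pigment cell markers were at 1 CPM or more in every library, with summed levels of 18000, 30800, 27600, 14700 and 24400 CPM in dynamic suspension, conventional 3D culture, the libraries labelled overexpression and knockdown, and shControl. The summed level of the 6 erythroid markers was at most 0.714 CPM. Macrophage and immune markers summed to 14, 15.8, 8.45, 0.853 and 4.5 CPM over 7 genes in that order, with Cd68 at 1 CPM or more in all but the library labelled knockdown. Fibroblast markers summed to 29, 81.1, 15.6, 35.6 and 29.3 CPM over 6 genes in that order. Of the 4 endothelial markers only Vwf reached 1 CPM in any library (summed level 1.85 to 10.7 CPM), and of the 4 hepatocyte markers 0 did. The part of these lists in the results was not tested.

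Hif1a, the targeted gene, was 390.5 CPM in dynamic suspension, 542 CPM in conventional 3D culture, 384 CPM in the library labelled overexpression, 95.1 CPM in the library labelled knockdown and 61.3 CPM in shControl. The library labelled knockdown therefore stood above shControl, against its label. No direction drawn from it over shControl below can be read as an effect of less Hif1a. This pair also differs in kind of column, and exons of Hif1a overlap Gm49321 on the same strand and Gm15283 on the other. For overexpression over knockdown Hif1a was higher, at a log2 ratio of 2.01 (interval 1.93 to 2.10). The library labelled overexpression was not above dynamic suspension or conventional 3D culture in Hif1a. An effect of Hif1a on the members was not tested in any pair.

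**Figure D1:**
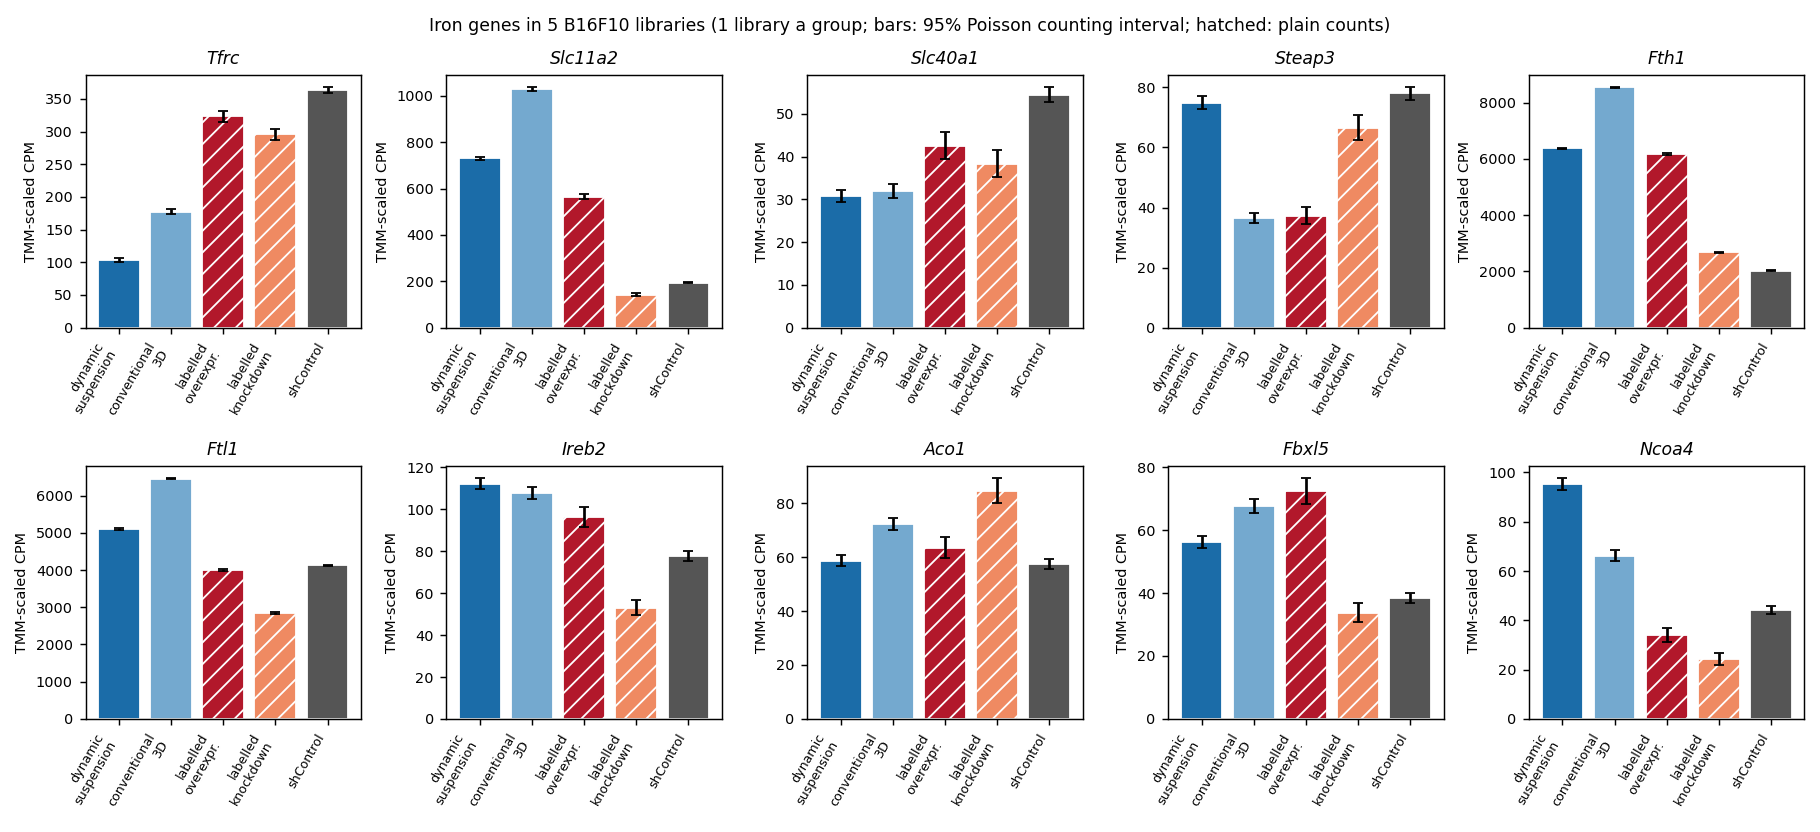
TMM-scaled CPM (vertical axis, from 0) of each of the 10 iron genes in the 5 libraries, 1 bar a library. Error bars give the 95% Poisson counting interval, and hatching marks the columns treated as plain counts. Slc11a2 and Fth1 are high in dynamic suspension, conventional 3D culture and the library labelled overexpression, Tfrc is lowest in dynamic suspension at 103.7 CPM, and Aco1 varies least among the 10.

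Among the uptake genes, Slc11a2 varied most across the libraries and Tfrc ran in another order. Slc11a2 (ENSMUSG00000023030, GRCm38 chr15:100387898-100425072, minus strand) was 731 CPM in dynamic suspension, 1032 CPM in conventional 3D culture, 565 CPM in the library labelled overexpression, 142 CPM in the library labelled knockdown and 195 CPM in shControl. The first 3 libraries were all above the other 2, and the highest was 7.27 times the lowest. Over shControl its log2 ratio was 2.41 in conventional 3D culture (interval 2.38 to 2.44), 1.91 in dynamic suspension (1.88 to 1.94) and 1.54 in the library labelled overexpression (1.5 to 1.58). Between the 2 plain-count columns it was 1.99 for overexpression over knockdown (1.93 to 2.06). An overlapping gene on the other strand, Gm5475, reached at most 1.57 CPM.

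Tfrc (ENSMUSG00000022797, chr16:32608920-32632794, plus strand), the transferrin receptor, was 104 CPM in dynamic suspension, 177 CPM in conventional 3D culture, 323 CPM in the library labelled overexpression, 296 CPM in the library labelled knockdown and 364 CPM in shControl. It was thus lowest in the cultures without a construct label and highest in shControl, with each neighbour in that order apart beyond counting error. The log2 ratio over shControl was -1.81 in dynamic suspension (interval -1.85 to -1.77) and -1.04 in conventional 3D culture (-1.07 to -1.0), and both were called lower. In the library labelled overexpression it was -0.17 (-0.21 to -0.13), below 2-fold.

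Steap3 (ENSMUSG00000026389, chr1:120190757-120272705, minus strand), the endosomal ferrireductase, was 74.9 CPM in dynamic suspension, 36.6 CPM in conventional 3D culture, 37.3 CPM in the library labelled overexpression, 66.6 CPM in the library labelled knockdown and 78.0 CPM in shControl. Conventional 3D culture and the library labelled overexpression lay together below the other 3, and they did not differ beyond counting error from each other (log2 interval -0.10 to 0.16). Steap3 was the single member called when dynamic suspension was set over conventional 3D culture, with a log2 ratio of 1.03 (interval 0.96 to 1.11).

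Transcripts of ferritin were the most abundant of the set, and the heavy chain varied more than the light chain. Fth1 (ENSMUSG00000024661, chr19:9980598-9985098, plus strand), the chain with ferroxidase activity, was 6367 CPM in dynamic suspension, 8541 CPM in conventional 3D culture, 6173 CPM in the library labelled overexpression, 2678 CPM in the library labelled knockdown and 2021 CPM in shControl. The first 3 libraries again stood above the other 2. Its log2 ratio over shControl was 2.08 in conventional 3D culture (interval 2.07 to 2.09), 1.66 in dynamic suspension (1.65 to 1.67) and 1.61 in the library labelled overexpression (1.60 to 1.62), and it was 1.21 for overexpression over knockdown (1.19 to 1.22). The order of the 5 libraries by Fth1 was the same as by Hif1a, an order that 1.2% of the 12848 genes that averaged 1 CPM or more had. Fth1 was the single member with that order, which was compared after its levels were seen, and Hif1a in dynamic suspension and in the library labelled overexpression stood close together at 390.5 and 384 CPM.

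Ftl1 (ENSMUSG00000050708, chr7:45457944-45459884, minus strand), the light chain that helps to form the mineral core, was 5103 CPM in dynamic suspension, 6454 CPM in conventional 3D culture, 3994 CPM in the library labelled overexpression, 2849.7 CPM in the library labelled knockdown and 4126 CPM in shControl. It was called in none of the 6 comparisons. The largest log2 ratio over shControl was 0.65 in conventional 3D culture (interval 0.64 to 0.65), and that of the library labelled overexpression was -0.05 (-0.06 to -0.04), which turned to 0.03 when libraries were scaled by their totals. Ftl1 shares 57.7% of its 31-base words with other genes, against 3.24% for Fth1, so its values are less certain. Its copy Ftl1-ps1, annotated as protein-coding, had 195, 249, 77.9, 47.2 and 142 CPM in dynamic suspension, conventional 3D culture, the libraries labelled overexpression and knockdown, and shControl. With the annotated pseudogenes and Ftl1-ps1 added, Ftl1 was 5357, 6780.0, 4090.0, 2905 and 4311 CPM in that order, and its calls were unchanged. The single annotated pseudogene of Fth1 found by sequence, Gm6977, was at 0 in every library.

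Per kb of the first annotated transcript (929 bases for Fth1 and 968 for Ftl1), Fth1 stood at 6854 CPM in dynamic suspension, 9194 CPM in conventional 3D culture, 6645 CPM in the library labelled overexpression, 2883 CPM in the library labelled knockdown and 2175 CPM in shControl, against a highest value of 341 CPM per kb for any member outside ferritin (Slc11a2 in conventional 3D culture). The ratio of Fth1 to Ftl1 per kb was 1.3 in dynamic suspension, 1.38 in conventional 3D culture, 1.61 in the library labelled overexpression, 0.979 in the library labelled knockdown and 0.51 in shControl. It was thus above 1 in the first 3 libraries and lowest in shControl. The side of 1 depends on the length used, since per kb of all annotated exons the ratio was 0.482, 0.511, 0.597, 0.363 and 0.189 in that order, while the order of the libraries was the same. Both genes together took 1.14% of all values in dynamic suspension, 1.3% in conventional 3D culture and 0.636% in shControl. In the libraries labelled overexpression and knockdown they took 1.11% and 0.569%. Annotated pseudogenes took 4%, 4.81% and 3.44% of all values in dynamic suspension, conventional 3D culture and shControl. They took 0.714% and 0.918% in the libraries labelled overexpression and knockdown. Ftl1 shares 57.7% of its 31-base words with other genes. A difference in Fth1 to Ftl1 between the 2 kinds of column therefore cannot be told apart from the kind of counting.

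**Figure D2:**
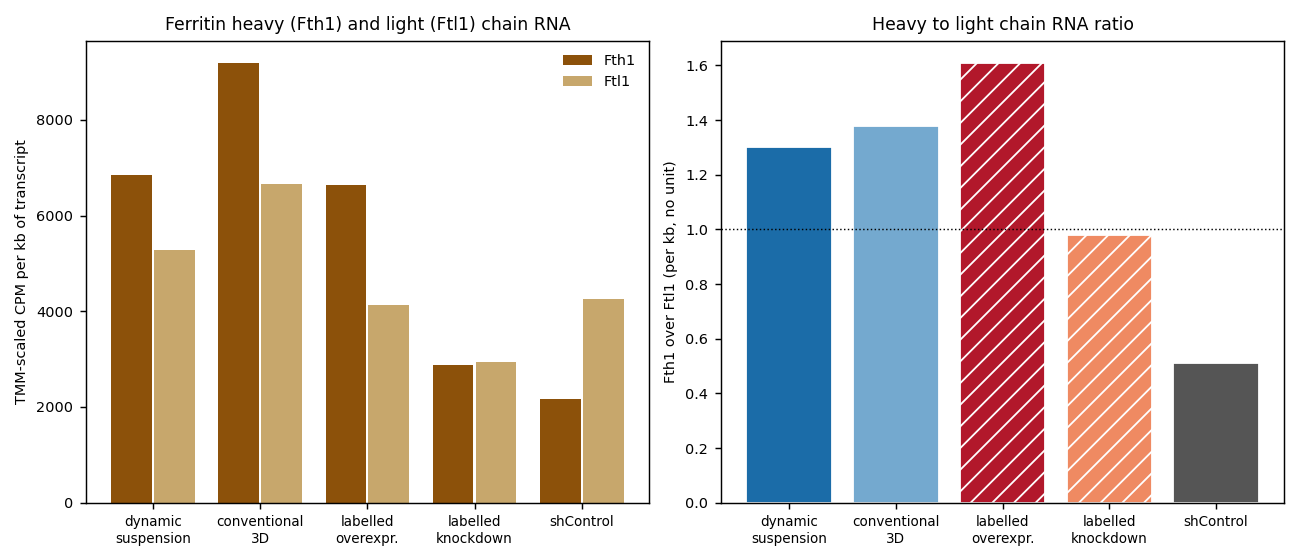
Left, TMM-scaled CPM per kb of transcript for Fth1 (dark) and Ftl1 (light) in the 5 libraries. Right, the ratio of the 2, with a dotted line at 1 and hatching for columns treated as plain counts. The ratio is between 1.3 and 1.61 in dynamic suspension, conventional 3D culture and the library labelled overexpression, and 0.51 in shControl. A difference between hatched and other bars cannot be told apart from the kind of counting.

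Ncoa4 (ENSMUSG00000056234, chr14:32159865-32179855, plus strand), the receptor that delivers ferritin to the lysosome, was 95.3 CPM in dynamic suspension, 66.1 CPM in conventional 3D culture, 34.1 CPM in the library labelled overexpression, 24.2 CPM in the library labelled knockdown and 44.1 CPM in shControl. The 3 columns of estimated counts were above the 2 of plain counts. It was called higher in dynamic suspension than in shControl, with a log2 ratio of 1.11 (interval 1.04 to 1.18), while conventional 3D culture was at 0.58 (0.51 to 0.66). Ncoa4 shares 18.8% of its 31-base words with other genes. The pseudogene Gm6768 holds 18.7% of them and had 19.6 CPM in dynamic suspension, 13.8 CPM in conventional 3D culture, 7.09 and 4.33 CPM in the libraries labelled overexpression and knockdown, and 8.3 CPM in shControl. The levels of Ncoa4 are uncertain to that extent.

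The export gene was within 2-fold in every comparison, and of the 3 sensing genes 1 was called once. Slc40a1 (ENSMUSG00000025993, chr1:45908068-45926523, minus strand), the iron exporter ferroportin, was 30.8 CPM in dynamic suspension, 31.9 CPM in conventional 3D culture, 42.6 CPM in the library labelled overexpression, 38.3 CPM in the library labelled knockdown and 54.5 CPM in shControl. It was highest in shControl, as Tfrc was. Dynamic suspension and conventional 3D culture did not differ beyond counting error, nor did the libraries labelled overexpression and knockdown. Its log2 ratio over shControl was -0.82 in dynamic suspension (interval -0.90 to -0.74) and -0.77 in conventional 3D culture (-0.86 to -0.69), short of 2-fold. The ratio for conventional 3D culture passed 2-fold when libraries were scaled by their totals.

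Ireb2 (ENSMUSG00000032293, chr9:54863789-54912530, plus strand), which encodes the iron regulatory protein IRP2, was 112 CPM in dynamic suspension, 108 CPM in conventional 3D culture, 96.3 CPM in the library labelled overexpression, 53.0 CPM in the library labelled knockdown and 77.7 CPM in shControl. Fbxl5 (ENSMUSG00000039753, chr5:43744615-43821638, minus strand), whose product degrades IRP2, was 56.3 CPM in dynamic suspension, 67.8 CPM in conventional 3D culture, 72.4 CPM in the library labelled overexpression, 33.7 CPM in the library labelled knockdown and 38.5 CPM in shControl. Both genes were thus lowest in the library labelled knockdown and next lowest in shControl. The log2 ratio of overexpression over knockdown was 0.86 for Ireb2 (interval 0.74 to 0.98) and 1.10 for Fbxl5 (0.95 to 1.26), and the second was called higher. Over shControl, Fbxl5 was at 0.91 in the library labelled overexpression (0.81 to 1.01) and at 0.81 in conventional 3D culture (0.74 to 0.89), both short of 2-fold.

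Aco1 (ENSMUSG00000028405, chr4:40143081-40198338, plus strand) encodes IRP1, which is an aconitase when it holds an iron-sulfur cluster. It was 58.7 CPM in dynamic suspension, 72.3 CPM in conventional 3D culture, 63.4 CPM in the library labelled overexpression, 84.6 CPM in the library labelled knockdown and 57.4 CPM in shControl. The highest was 1.47 times the lowest, the narrowest range of the 10 genes, and dynamic suspension and shControl did not differ beyond counting error (log2 interval -0.04 to 0.10). Aco1 was highest in the library where Ireb2 was lowest.

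Between the culture methods, 1 of the 10 iron genes (Steap3) was called higher in dynamic suspension, set over conventional 3D culture, and 0 were called lower. Over all 12875 genes tested 6.44% were called higher and 7.64% lower, 14.1% in either direction. The members had a median log2 ratio of -0.28, against -0.02 for all genes, with 7 of 10 ratios below 0. Tfrc was the lowest member at -0.78 (interval -0.82 to -0.73), followed by Slc11a2 at -0.50 (-0.52 to -0.48) and Fth1 at -0.42 (-0.43 to -0.42). Ncoa4 was at 0.53 (0.47 to 0.59) and Ireb2 at 0.06 (0.01 to 0.11). Slc40a1, at -0.05 (-0.15 to 0.04), turned to 0.14 under scaling by totals, which moved the median of all genes up by 0.19 in this comparison.

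Against shControl the cultures without a construct label had more Slc11a2 and Fth1 and less Tfrc. In conventional 3D culture 2 of the 10 were called higher (Slc11a2 and Fth1) and 2 lower (Tfrc and Steap3), where 14% of 12929 genes were called higher and 14.9% lower, 28.9% in all. In dynamic suspension 3 were called higher (Slc11a2, Fth1 and Ncoa4) and 1 lower (Tfrc), where 13.8% of 12940 genes were called higher and 14.8% lower, 28.6% in all. The members' median log2 ratio was 0.53 for conventional 3D culture, against -0.01 for all genes, and 0.42 for dynamic suspension, against -0.02 for all genes. All 3 columns are treated as estimated counts, and both comparisons share the shControl library, which was the lowest in Hif1a. With 4 of 10 members called in each, the shares are near those of all genes.

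The library labelled overexpression had more Slc11a2, Fth1 and Fbxl5 than the library labelled knockdown. These 3 of 10 members were called higher and 0 lower, where 17.7% of 12305 genes were called higher and 14.9% lower (32.7% in all), and the members' median log2 ratio was 0.49 against -0.03 for all genes. Steap3 was at -0.84 (interval -0.98 to -0.69) and Aco1 at -0.42 (-0.53 to -0.30), while Tfrc was at 0.13 (0.07 to 0.19). Against shControl, 2 members were called higher in the library labelled overexpression (Slc11a2 and Fth1) and 1 lower (Steap3 at -1.06, interval -1.19 to -0.95), where 16.1% of 12881 genes were called higher and 20.1% lower, 36.3% in all. The call for Steap3 was lost under scaling by totals, at -0.99.

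In the library labelled knockdown against shControl, 0 of the 10 genes were called in either direction, where 8.05% of 12639 genes were called higher and 15.7% lower, 23.7% in all. The members' median log2 ratio was -0.38, against 0.01 for all genes. Ncoa4 was the lowest at -0.87 (interval -1.03 to -0.71), followed by Ireb2 at -0.55 (-0.66 to -0.44) and Ftl1 at -0.53 (-0.55 to -0.52). Aco1 at 0.56 (0.47 to 0.65) and Fth1 at 0.41 (0.39 to 0.42) had ratios above 0. Over the 6 comparisons, 6 of the 10 genes were called at least once and 4 never (Slc40a1, Ftl1, Ireb2 and Aco1). Pairs of libraries outside these 6 were not compared. Across all libraries the highest level was 2.26 times the lowest for Ftl1 and 2.12 times for Ireb2. For both genes the lowest was the library labelled knockdown, a plain-count column, and the highest an estimated-count column. Of the 11553 genes that passed the filter in all 6, 57.7% were called at least once, so the members' share is near that of all genes.

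**Figure D3:**
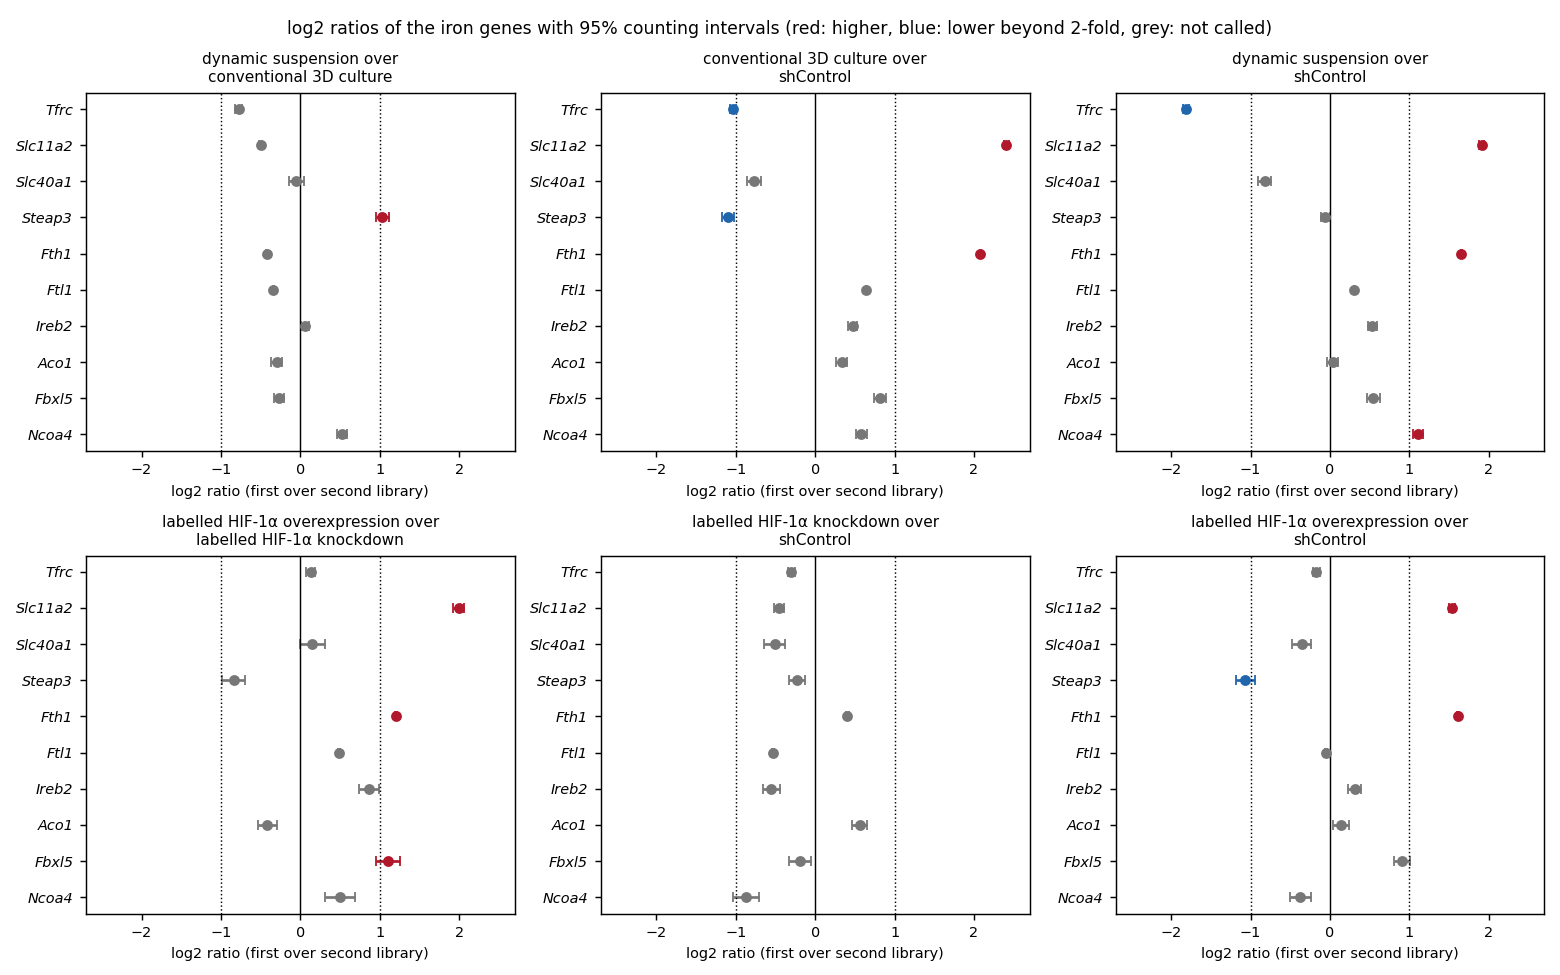
log2 ratios (horizontal axis, first library named over the second) of the 10 iron genes in the 6 comparisons, with 95% counting intervals and dotted lines at 2-fold; red points are called higher, blue lower and grey neither. Slc11a2 and Fth1 are beyond 2-fold in 4 comparisons each, and no member is beyond 2-fold for the library labelled knockdown over shControl.

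Of 73 further genes of iron transport, haem, iron-sulfur clusters, iron chaperones and the hepcidin axis, 55 or 56 passed the filter of 1 CPM in each comparison. In dynamic suspension over conventional 3D culture 4 were called higher and 2 lower, with a median log2 ratio of -0.09. In conventional 3D culture over shControl 4 were higher and 6 lower (median -0.12), and in dynamic suspension over shControl 5 were higher and 3 lower (-0.11). For overexpression over knockdown there were 7 higher and 5 lower (-0.28), for knockdown over shControl 2 and 2 (0.17), and for overexpression over shControl 5 and 8 (-0.10). The shares called among all genes in these comparisons are those given above, and the medians of all genes lay between -0.03 and 0.01.

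Haem genes included a large difference in Hmox1, haem oxygenase 1, which breaks haem down and frees its iron. Hmox1 was 471 CPM in dynamic suspension, 64.3 CPM in conventional 3D culture, 213 CPM in the library labelled overexpression, 74.2 CPM in the library labelled knockdown and 46.4 CPM in shControl. Its log2 ratio for dynamic suspension over conventional 3D culture was 2.87 (interval 2.82 to 2.93), whereas that of Fth1 was -0.42. Slc48a1, which carries haem out of endosomes and lysosomes, was 495, 428, 614, 305 and 201 CPM in the same order of libraries and was called higher over shControl in the first 3. Blvrb, a biliverdin reductase, was 22.9, 61, 85.6, 26.4 and 12 CPM in that order. For dynamic suspension over conventional 3D culture its log2 ratio was -1.41 (interval -1.51 to -1.32), opposite in sign to Hmox1. Exons of Slc48a1 overlap those of Hdac7 on the other strand, so the Slc48a1 values are less certain.

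Surface and secreted iron proteins had the widest ratios. Cp, the ferroxidase ceruloplasmin, was 65.5 CPM in dynamic suspension, 4.28 CPM in conventional 3D culture, 4.82 CPM in the library labelled overexpression, 57.1 CPM in the library labelled knockdown and 67.4 CPM in shControl. It was low in the same libraries as Steap3. Its log2 ratio was 3.92 for dynamic suspension over conventional 3D culture (interval 3.74 to 4.13). Exons of Cp overlap those of Hps3 on the other strand, so the Cp values are less certain. Hfe, which binds the transferrin receptor, was 33.4, 60.6, 58.9, 13.1 and 13.2 CPM in dynamic suspension, conventional 3D culture, the libraries labelled overexpression and knockdown, and shControl, and was called higher over shControl in the first 3. Steap1, a relative of Steap3, was 0.828, 1.6, 0.834, 7.22 and 8.02 CPM in that order, low in those same 3 libraries. Lcn2, the siderophore-binding lipocalin, was 6.07 CPM in dynamic suspension and at most 0.292 CPM in the other libraries. Trf, transferrin, was 514.5, 326, 7.62, 6.63 and 245 CPM in that order. Its exons overlap those of Gm20425 on the same strand and 63.8% of its 31-base words occur in other genes, so its low values in the plain-count columns cannot be told apart from the kind of counting.

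Slc39a14, Pcbp1 and Slc25a37 were within 2-fold in all 6 comparisons. These do not set the library labelled overexpression, where Slc25a37 was highest, against either culture without a construct label. Slc39a14, a transporter of iron not bound to transferrin, was 47.2, 55.6, 69.3, 89.2 and 49.9 CPM in dynamic suspension, conventional 3D culture, the libraries labelled overexpression and knockdown, and shControl. Pcbp1, a chaperone that delivers iron to ferritin, was 571, 499, 439, 774 and 619.8 CPM in that order, and Slc25a37, the mitochondrial importer mitoferrin 1, was 31.1, 36.4, 82.6, 44.4 and 45.2 CPM. Exons of Pcbp1 and of Slc25a37 overlap genes on the other strand, so their values are less certain. In the hepcidin axis, 2 of 7 genes passed the filter in each comparison, and the hepcidin gene Hamp was at 0 in all 5 libraries.

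**Figure D4:**
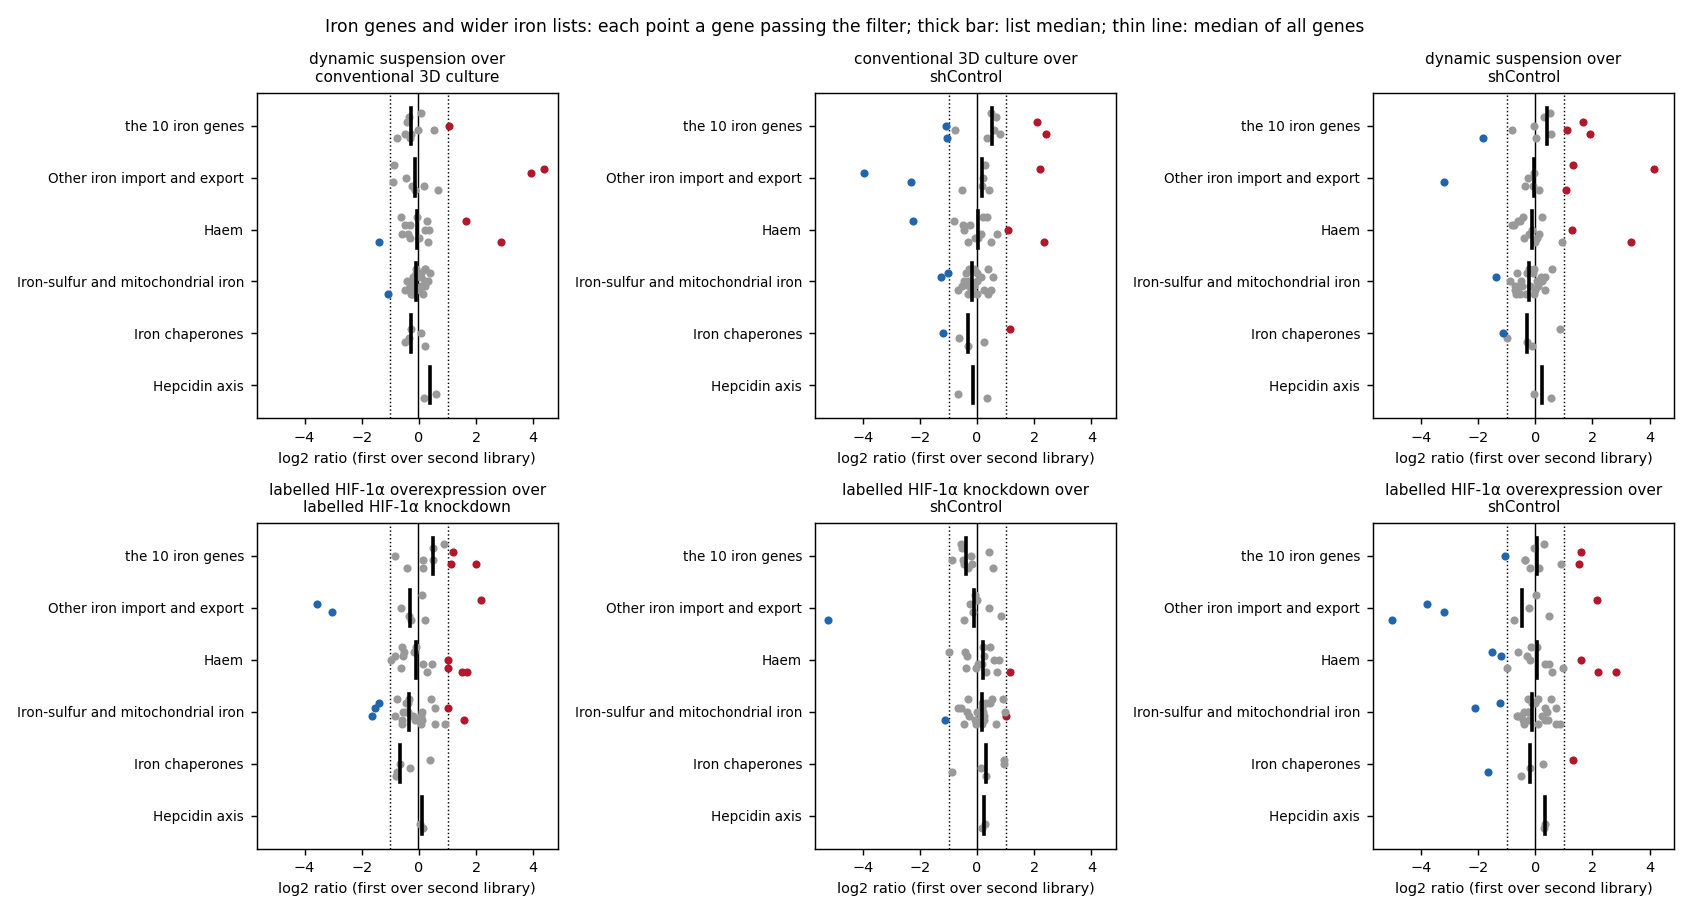
log2 ratios (horizontal axis) of the 10 iron genes and of 5 wider iron lists in the 6 comparisons, 1 point a gene that passed the filter, with a thick bar at each list's median and a thin line at the median of all genes. Red and blue points are called higher and lower beyond 2-fold. Most points are grey. The largest ratios lie among other iron import and export genes, such as Cp at 3.92 for dynamic suspension over conventional 3D culture. The values of Cp are less certain, since its exons overlap those of Hps3 on the other strand.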

How the data were processed

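Poly(A)-selected, strand-specific libraries were sequenced as paired reads on a NovaSeq instrument, per the labels' protocols. The authors deposited 1 table of whole numbers per Ensembl gene. Of the deposited columns, 2 are treated as plain counts (labelled knockdown and overexpression). The other 3 deposited columns are treated as estimated counts, since their low values pile up at 4 and 8. The tools named per the submitters' processing notes are HISAT2, StringTie and cutadapt, with the builds mm10 and GRCm38.p6. Which program counted, with what annotation and strand setting, is not given in the sources used here. All 54100 identifiers matched GENCODE M21, and 0 columns were left unassigned.

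Values were scaled by TMM over all 5 libraries (edgeR 4.0.16, R 4.3.3), and log2 ratios used a prior count of 2. Intervals are exact conditional binomial (Clopper-Pearson) for ratios and Poisson for levels. They cover counting error only and may be too narrow for estimated counts. Calling was tested on simulated Poisson counts, which cannot show how it does on estimated counts or across repeat libraries. A gene was called at 2-fold or more with a mean of at least 1 CPM. Shared sequence was measured as 31-base words common to another gene's transcripts; ferritin pseudogenes shared at least 20% of theirs. Alternatives were other scalings (totals, DESeq2 1.42.0 size factors, TMM on the pair), prior counts, filters, folds and ferritin sums. Named genes were the 10 members, Hif1a, 4 fixed iron genes and the wider-list genes called with the largest ratios, up to 4 in each direction; some of these are not reported here. The members and lists were chosen with earlier results of these data known.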

Additional observations from a re-analysis of the deposited data

How the results depend on the processing

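With 1 library a group, no replicate could be left out. No paired analysis was possible because each group has a single library. Of 120 recounts of called members under the alternatives, 114 stayed within 1.5 times the reported count. Recounts with another prior count, another filter or the ferritin sums matched the reported calls in every comparison. They could hardly move, since the lowest member level was 24.2 CPM and the sums changed Ftl1 little, so they add little to the 114. With a call at 1.5-fold, members called lower were 1 for dynamic suspension over conventional 3D culture (Tfrc, reported 0), 2 for dynamic suspension over shControl (reported 1), 1 for overexpression over knockdown (Steap3, reported 0) and 1 for knockdown over shControl (Ncoa4, reported 0). Members called higher were then 4 for conventional 3D culture over shControl (reported 2). Scaling by totals left 0 members lower for overexpression over shControl (reported 1). It also moved the median of all genes by 0.19 for dynamic suspension over conventional 3D culture and by -0.26 for conventional 3D culture over shControl. The split of all genes there became 1117 higher and 703 lower (829 and 984 by TMM), and 1275 higher and 2740.0 lower (1815 and 1920.0 by TMM). With no filter on low values, 2470.0 genes were higher and 2215 lower in dynamic suspension over conventional 3D culture, and with a mean of at least 10 CPM 372 and 471. Of the 600 recomputed member ratios, 72 fell outside their reported counting interval, so the intervals do not cover the choice of processing. No called ratio changed sign, but each is at least 2-fold, so this says little. Aco1 for dynamic suspension over shControl, at 0.03, was -0.03 under totals. TMM over protein-coding genes alone, and adding Ftl1-ps1, were chosen after seeing the data and changed no member's call.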

Other observations

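Genes of iron-sulfur cluster assembly and mitochondrial iron, which use the iron the members deliver, numbered 25 that passed the filter. For overexpression over knockdown 2 were called higher and 3 lower, against 17.7% and 14.9% of all genes, and in each other comparison at most 2 were called in either direction, against 14.1% to 36.3% of all genes. Nubp1, a scaffold of cytosolic cluster assembly, was 24.3 CPM in dynamic suspension, 26.2 CPM in conventional 3D culture, 14.5 CPM in the library labelled overexpression, 42.5 CPM in the library labelled knockdown and 62.4 CPM in shControl, low in the libraries where Fth1 was high. An exon of Nubp1 overlaps Tvp23a on the other strand, so its values are less certain.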
